A study of Mus musculus with 24 samples.

Results

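AP-1 is a transcription factor made of 2 basic leucine zipper (bZIP) proteins, and the 10 mouse genes described here, Jun, Junb, Jund, Fos, Fosb, Fosl1, Fosl2, Batf, Batf3 and Atf3, encode proteins that pair to form it or pair with its subunits. The genes were chosen by symbol, and all 10 of them were among the 24421 gene symbols of both RNA-seq count tables. B16-OVA is a mouse melanoma line that carries ovalbumin. Cells with a hairpin against Fto (shFto), which encodes an enzyme that removes N6-methyladenosine (m6A) from RNA, were compared with cells with a control hairpin (shNC). All tumour cells were grown in puromycin. RNA-seq and ATAC-seq, which maps open chromatin, each covered 3 shFto and 3 shNC libraries of the tumour cells. RNA-seq also covered CD8 T cells of OT-I mice on the C57BL/6 background, whose receptor recognises an ovalbumin peptide. They were isolated as naive cells, kept for 8 h in medium with IL-2 beside tumour cells of the shNC, shFto-1 or shFto-2 line, and sorted, with 2 libraries a group. In the m6A-seq experiment, 1 peak list each described DMSO-treated shNC cells, DMSO-treated shFto cells and shNC cells that received 5 µM Dac51, a compound known here by its code name, for 48 h. Which shFto line was used for the tumour cell libraries and peak lists is not given in the labels. Nor do they state whether the replicates of a group were separate cultures or mice, and the p-values here therefore speak of the scatter of these libraries alone, possibly a technical one.

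AP-1 binds DNA as a dimer. The Jun proteins can pair with each other or with Fos proteins, Fos proteins need a Jun partner, and BATF, BATF3 and ATF3 form further pairs with Jun proteins. Growth factors, stress and antigen receptors act on it through the MAP kinases, and Fos, Fosb, Jun, Junb and Atf3 are early response genes whose RNA is made fast and decays fast. In T cells AP-1 binds beside NFAT at cytokine genes such as Il2, and BATF with a Jun partner binds beside IRF4 or IRF8. In melanoma, JUN and FRA-1, the product of Fosl1, are known from cells that have lost pigment cell features.

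The tumour libraries held 11152404 to 19665589 counts each, and those of T cells 2628158 to 13066355, with replicate 1 beside shNC the smallest. Fto lay at 28.3 to 33.5 CPM in shFto and 91.8 to 108 CPM in shNC tumour libraries, where CPM is a count scaled to a common library size with TMM factors. In T cells, which did not carry the hairpin, the log2 fold change of Fto for the mean of both lines was 0.09 and not called (edgeR adjusted p = 0.648). The summed level of 10 melanoma markers was 14900 to 19200 CPM in tumour libraries, and that of 10 CD8 T cell markers was 4.47 to 7.95 CPM there. In T cell libraries the CD8 markers summed to 3250 to 4390 CPM and the melanoma markers to 988 to 1500 CPM, which was 6.5% to 8.22% of their mean in tumour cells with the same kind of hairpin. For both shFto lines that was the mean of the same 3 shFto tumour libraries, whose line is not given.

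Promoters are shown for Jun, Fos, Batf and Atf3, the genes whose RNA passed a test below and that hold a match to a bZIP motif near the annotated start. The sequences are the 200 bases before the annotated start, from RefSeq on GRCm38.p6 (mm10), and 9 of the 10 genes had an entry, all but Fosl1. Capitals mark the motif matches.
Jun (chr4:95052223-95052422, minus strand): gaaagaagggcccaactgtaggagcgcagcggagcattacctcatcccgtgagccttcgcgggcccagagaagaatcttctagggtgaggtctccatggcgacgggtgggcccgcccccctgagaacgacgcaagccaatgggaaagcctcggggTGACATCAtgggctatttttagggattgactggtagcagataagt
Fos (chr12:85473690-85473889, plus strand): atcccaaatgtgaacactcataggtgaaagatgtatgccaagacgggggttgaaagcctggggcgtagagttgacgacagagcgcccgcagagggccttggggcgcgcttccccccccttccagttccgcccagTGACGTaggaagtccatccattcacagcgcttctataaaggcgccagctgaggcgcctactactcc
Batf (chr12:85686520-85686719, plus strand): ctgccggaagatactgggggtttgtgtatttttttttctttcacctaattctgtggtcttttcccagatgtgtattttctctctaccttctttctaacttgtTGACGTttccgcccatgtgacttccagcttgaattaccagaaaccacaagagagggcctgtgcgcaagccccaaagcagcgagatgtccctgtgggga
Atf3 (chr1:191183334-191183533, minus strand): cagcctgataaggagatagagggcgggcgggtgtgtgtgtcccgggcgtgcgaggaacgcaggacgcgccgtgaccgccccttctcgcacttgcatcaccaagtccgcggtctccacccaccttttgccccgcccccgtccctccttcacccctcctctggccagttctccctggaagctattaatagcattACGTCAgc
The match in Jun is TGACATCA, a variant of the AP-1 motif, at bases -45 to -38 from the start. The matches in Fos (-66 to -61), Batf (-98 to -93) and Atf3 (-8 to -3, on the opposite strand) are TGACGT, the core of a cyclic AMP response element. Over the whole entry, 250 bases before to 50 after the start, both strands were searched for 4 motifs, chosen after these sequences had been seen. TGACTCA was in 5.2% of 32851 promoters, the palindrome TGACGTCA in 1.79%, TGACGT in 7.51% and TGACATCA in 3.62%. The 588 promoters with TGACGTCA also count under TGACGT. Of the 9 AP-1 promoters, 0 held TGACTCA or TGACGTCA, 3 held TGACGT and 1 held TGACATCA.

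In tumour cells the Jun family genes split. Jun, a subunit with strong transactivation and a driver of proliferation, fell after Fto knockdown. Its level was 85.1, 72.7 and 83.0 CPM in the shNC libraries and 52.1, 47.1 and 60.5 CPM in the shFto libraries, so that every shFto library lay below every shNC library. The log2 fold change was -0.59 (SE 0.0997, edgeR quasi-likelihood adjusted p = 0.000194). Jund, the family member that is expressed most steadily and is often linked to restraint of growth, fell from 73.1, 77.9 and 83.7 CPM to 39.9, 47.3 and 53.7 CPM, again without overlap. Its log2 fold change was -0.74 (SE 0.104, adjusted p = 3.06e-05). Junb, which can counter Jun, had 22.6, 25.1 and 24.2 CPM in shNC and 23.4, 21.3 and 32.4 CPM in shFto libraries. These ranges overlapped, and the log2 fold change of 0.11 did not pass the test (95% interval -0.18 to 0.40, adjusted p = 0.583).

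The Fos family was expressed at lower counts in these cells. Fos, the early response partner of Jun, rose from 2.81, 3.37 and 1.9 CPM in shNC to 4.42, 5.32 and 6.13 CPM in shFto libraries, on 27 to 121 counts a library. The log2 fold change was 0.96 (SE 0.264, adjusted p = 0.00843), and the groups did not overlap. Fosl2, which encodes the FRA-2 subunit, lay at 13.6, 12.9 and 10.3 CPM in shNC and 14.3, 14 and 13.2 CPM in shFto libraries, a log2 fold change of 0.17 that did not pass the test (interval -0.14 to 0.48, adjusted p = 0.4). Fosb had 6 to 38 counts a library, with the highest level of each group, 1.9 CPM in shNC and 1.92 CPM in shFto, far above the other two. Its interval was correspondingly wide (-0.97 to 1.37, log2). Fosl1, which encodes FRA-1, had 3 counts in all 6 libraries together and was not tested.

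Among the BATF and ATF genes, Atf3, a stress-induced factor that often represses, fell from 4.1, 4.36 and 4.92 CPM to 2.24, 1.66 and 2.48 CPM. The log2 fold change was -1.04 (SE 0.273, adjusted p = 0.00635), without overlap. Batf, better known from lymphocytes, rose from 5.7, 5.34 and 5.62 CPM to 7.35, 8.72 and 8.56 CPM (log2 fold change 0.56, SE 0.184, adjusted p = 0.0243). That call was lost without shFto replicate 2 (adjusted p = 0.082), shFto replicate 3 (0.0501) or shNC replicate 2 (0.0611). Batf3, its neighbour in sequence and a factor of cross-presenting dendritic cells, had 5.32, 3.6 and 3.79 CPM in shNC and 2.82, 3.31 and 4.46 CPM in shFto libraries and was not called (log2 fold change -0.25, adjusted p = 0.504). The 10 CD8 T cell markers summed to 6.71 to 7.95 CPM in shFto and 4.47 to 6.08 CPM in shNC libraries, without overlap, with 6 to 8 of them at 0 in each library, Cd3e and Cd8a in all 6. Most of the sum was Lck (6.65 CPM in shFto and 4.77 in shNC, not called, adjusted p = 0.0709), and its part in the Batf value was not tested.

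Of the 9 AP-1 genes tested in tumour cells, 2 rose, 3 fell and 4 did not pass the test. Beside these 5 calls, 32.8% of all 11718 tested genes were called, 15.9% higher and 16.9% lower, and 2468 genes in place of 3841 without shFto replicate 1. Scaling by library totals moved the share of higher genes among the calls from 48.5% to 60.0% and the median of all genes to 0.053, with the same 5 AP-1 genes called. The median log2 fold change was 0.11 for the 9 genes and -0.003 for all genes. The shFto and shNC libraries did not overlap for 5 of the 9 genes, as for 45.1% of all genes. The summed level of the 10 AP-1 genes, which Jun, Jund and Junb dominate, was 147 to 183 CPM in shFto and 206 to 218 CPM in shNC libraries. Fibroblast and endothelial markers, 8 genes, summed to 4.41 to 6.02 CPM in shFto and 9.82 to 12 CPM in shNC libraries, and 3 of them fell (Col1a2, Col1a1 and Pdgfra). Melanoma markers summed to 18600 to 19200 CPM in shFto and 14900 to 15800 CPM in shNC libraries, and 7 of 10 rose. The part of either list in the AP-1 values was not tested. In bulk libraries, fewer cells of a type and less RNA per cell cannot be told apart.

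**Figure D1:**
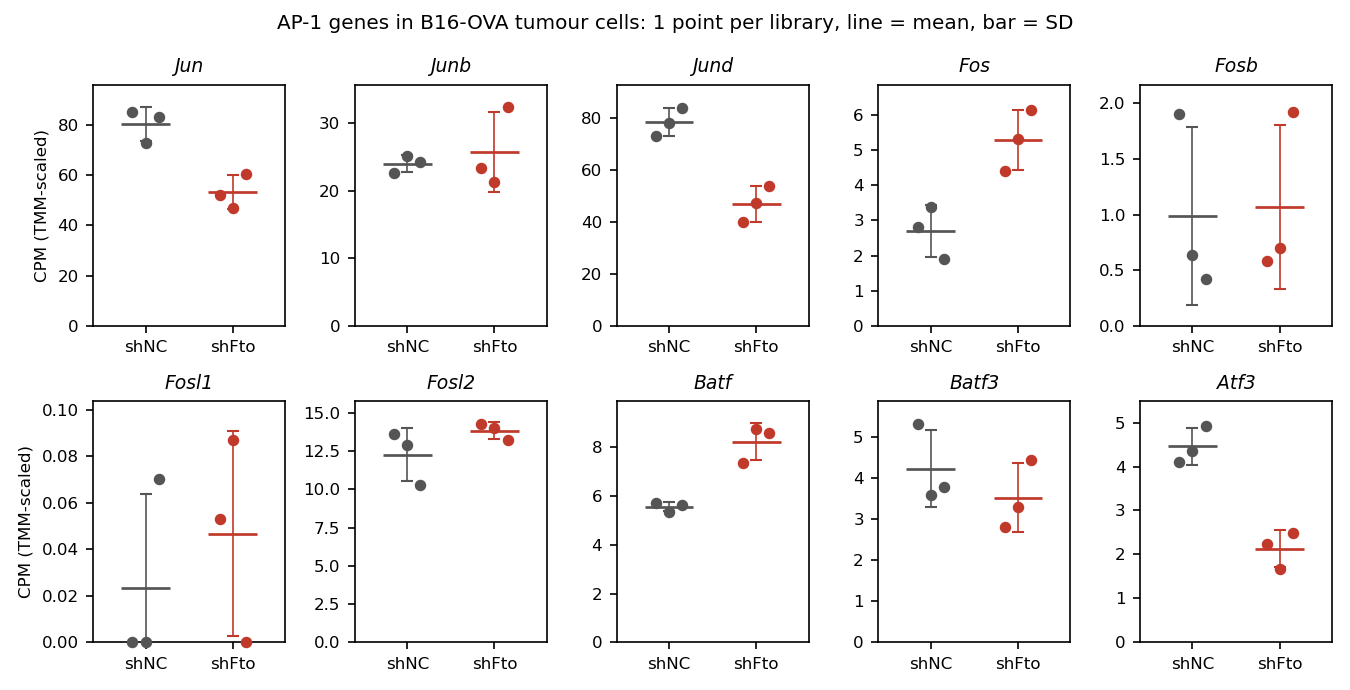
Level of each AP-1 gene in B16-OVA tumour cells, in TMM-scaled CPM (y axis, from 0, scaled per gene) for 3 shNC and 3 shFto libraries (x axis). Points are libraries, horizontal lines group means and bars the SD. Jun, Jund and Atf3 lie lower and Fos and Batf higher in every shFto library, while the groups overlap for Junb, Fosb, Fosl2 and Batf3, and Fosl1 has 3 counts in all.

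Other genes of the pathway were described from lists chosen by function. For comparison, 15.9% of all 11718 tested genes were called higher and 16.9% lower. Of 18 tested bZIP relatives, 7 rose and 2 fell in shFto tumour cells (median log2 fold change 0.25), led by Atf6 (0.86, adjusted p = 6.48e-07), Atf5 (0.87) and Ddit3 (0.7), factors of the stress response of the endoplasmic reticulum and amino acid supply. Of 23 genes for MAP kinases, the kinases above and below them and transcription factors they act on, 5 rose and 5 fell (median 0.03). Rps6ka3, an ERK-activated kinase, had a log2 fold change of 0.67, and Mapk9, a JUN N-terminal kinase, one of 0.46. Of 16 genes that restrain AP-1 input or protein, 4 rose and 2 fell (median 0.24). Dusp4 (0.7), Spred2 (0.41) and Dusp6 (0.3), all feedback inhibitors of ERK signalling, led by adjusted p. The 2 that fell were Dusp7 (-0.46) and Zfp36l2 (-0.31). Of 14 tested target genes, 4 rose and 2 fell (median -0.11). Leading by adjusted p were Nqo1 (0.67) and Gclm (0.43), antioxidant genes that are also NRF2 targets, and the cyclin gene Ccnd1 (0.33). The 2 that fell were Vim (-0.35, from 3360 to 2630 CPM) and Plaur (-0.48). All 23 listed target genes summed to 3270 to 3490 CPM in shFto and 3920 to 4170 CPM in shNC libraries, mostly Vim. Over 6 libraries and 8956 genes with a mean of at least 10 CPM, the genes whose log2 CPM was most like that of Jun were Gps1 (Pearson r = 0.998), Tkt (0.997) and Hn1 (0.996), given as a description of libraries that share the group difference.

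The m6A peak lists gave 13 peaks on 8 of the AP-1 genes in shNC cells, 12 peaks on 8 in shFto cells and 9 peaks on 7 in Dac51-treated cells. Each peak carries a fold enrichment of antibody over input RNA, the value of the authors' peak caller, and with 1 list a condition there is no replicate and no test. The read depth behind the m6A and ATAC-seq peak values is unknown. Jun carried one of the strongest peaks of any gene. On chromosome 4, at 95049810 to 95050555 (mm10, 746 bases, within the single exon and 1667 to 2412 bases from the start of the gene), its fold enrichment was 43.6 in the shNC list. The shFto list had a peak at the same coordinates with a fold enrichment of 80.2. In the Dac51 list a single peak of 2472 bases spanned 95049751 to 95052222, with a value of 103, and since it covers a longer stretch its fold is not that of the same region. Of all genes with a peak, 1.49% in the shNC list, 1.16% in the shFto list and 0.553% in the Dac51 list had a highest fold at or above that of Jun. A further Jun peak at the start of the gene had a fold of 3.82 in shNC (924 bases) and 7.55 in shFto cells (1073 bases).

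Jund and Junb were also marked in all 3 lists. The leading Jund peak, on chromosome 8 at 70699627 to 70700376 in the shNC list, had a fold enrichment of 24.7 in shNC, 25.3 in shFto and 34.5 in Dac51-treated cells. The leading Junb peak, at 84977888 to 84978333 on the same chromosome, had 12, 19.0 and 16.2, and its other peak 6.41, 9.07 and 6.44. Among the Fos genes, the Fosl2 peak at 32153054 to 32153592 on chromosome 5 had 11.5, 26.5 and 29.6. The Fos peak at 85476104 to 85476164 on chromosome 12 was the weakest leading peak of the family in shNC cells, with 2.82, and had 4.29 and 8.92 in the other lists, where it was 180 bases long in place of 61. The shFto list had a further Fos peak with a fold of 4.46. Fosb had 18.9 in shNC and 6.43 in shFto cells and no peak in the Dac51 list.

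Batf was marked near the 3′ end of the gene, at 85708796 to 85708970 on chromosome 12, with a fold enrichment of 6.0, 11.1 and 23.2 in the shNC, shFto and Dac51 lists. Atf3 had 3 peaks in the shNC list, within 191170686 to 191171464 on chromosome 1, with folds of 3.98, 20 and 6.11. In the shFto list it had 2 peaks (6.17 and 3.52), and in the Dac51 list 1 peak of 1198 bases (6.85), so that the lists cut this stretch differently. Fosl1 and Batf3 had no peak in any list. Fosb, Fos, Batf and Atf3 rest on few RNA counts in these cells, and their peaks in the shNC list had deposited p-values of 1.5e-06 to 0.00028.

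The leading shNC peak of each gene was set against the strongest overlapping peak of the same gene in the other list. Toward shFto the ratio was at least 1.5 for 5 of 8 AP-1 genes, namely Fosl2 (2.3), Batf (1.85), Jun (1.84), Junb (1.58) and Fos (1.52). Jund was at 1.02, and Fosb (0.34) and Atf3 (0.308) were below 1. Over all 4794 genes with such a pair, 45.6% reached 1.5 and the median ratio was 1.42, so the whole list was shifted. Toward Dac51 4 of 7 reached it, Batf (3.87), Fos (3.16), Fosl2 (2.57) and Jun (2.36, from peaks of 746 and 2472 bases), against 44.7% of 4653 genes and a median of 1.41. Jund was then at 1.4, Junb at 1.35 and Atf3 at 0.342, from peaks of 271 and 1198 bases. The paired peaks differ in length for most genes, so the ratios of Jun and Atf3 toward Dac51, and that of Fos from 61 to 180 bases, do not compare the same stretch. Nor do those of Atf3 toward shFto (271 and 510 bases) and of Batf, from 175 bases to 351 toward shFto and 264 toward Dac51. Both ratios share the shNC list. Set beside the RNA of the shFto cells, Jun had a higher fold enrichment and lower RNA, Batf and Fos a higher fold enrichment and higher RNA, Atf3 a lower fold enrichment and lower RNA, and Jund the same fold enrichment to within 1.02 times and lower RNA. These pairings do not correct for the shift of the whole list. Against its median of 1.42, Fos (1.52) was close to the typical gene and Jund (1.02) lay below it.

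**Figure D2:**
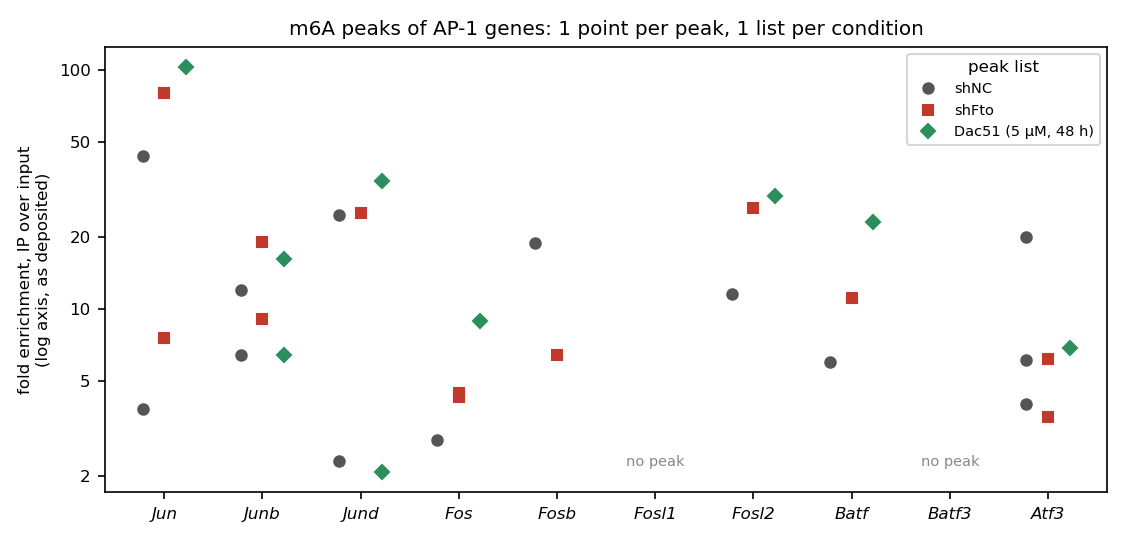
Fold enrichment of every m6A peak on the AP-1 genes (y axis, antibody over input, log axis, as deposited) in the shNC, shFto and Dac51 peak lists (symbols), by gene (x axis). Jun has the highest values, 43.6, 80.2 and 103. Fosl2 and Batf are lower in the shNC list than in both others, Fosb and Atf3 are highest in the shNC list, and Fosl1 and Batf3 have no peak.

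In tumour cells, every ATAC-seq library of both groups had at least 1 peak within 10 kb of each AP-1 gene. Taking the strongest peaks of each library up to the length of the shortest list (67427 peaks), the windows from 10 kb before to 10 kb after the 10 genes held 40, 38 and 40 peaks in the shFto and 42, 43 and 39 in the shNC libraries. The means were 39.3 ± 1.15 and 41.3 ± 2.08 (SD, n = 3 each), a difference of -2.0 that was within the spread between libraries (exact permutation test, two-sided, p = 0.3, where 3 against 3 cannot go below 0.1). These windows also take in neighbouring genes. The peaks merged into 48 regions, of which 31 had a peak in all 6 libraries, as had 49718 of 88084 regions of the genome. A peak in all 3 libraries of 1 group and in none of the other was found in 1 of the 48, against 2.54% of 88084 regions of the genome. It lay within Batf, at 85703421 to 85703746 on chromosome 12 (mm10), 16863 bases from the start, with a fold enrichment over background of 7.5, 7.91 and 9.71 in the shNC libraries. Without the limit on list length the shFto libraries had no peak there either. A stronger Batf region at 85705296 to 85705875 was open in all 6 libraries, with 11.6, 12.2 and 12.2 in shFto and 9.95, 8.92 and 10.1 in shNC cells.

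At the gene starts themselves, the strongest peak that reached within 1 kb of the annotated start was compared. At Jun its fold enrichment was 8.59, 10.5 and 9.86 in shFto and 9.64, 9.91 and 9.56 in shNC libraries, with summits 93 to 18 bases before the start, over the stretch printed above. These ranges overlapped (log2 ratio of the means -0.01), whereas the RNA of Jun fell. At Jund the values were 12.2, 12.2 and 13.8 against 13.3, 12.4 and 11.8, with summits 1129 to 1202 bases after the annotated start. At Fos, whose RNA rose, the values were 7.27, 7.7 and 7.92 in shFto and 6.65, 6.29 and 7.04 in shNC libraries, higher in each shFto library (log2 ratio 0.2, exact permutation p = 0.1, the smallest that 3 against 3 allows). At Atf3, whose RNA fell, they were 15, 17.5 and 17.1 against 17.7, 17.9 and 18.6, lower in each shFto library (-0.13, exact p = 0.1). The groups did not overlap at these 2 of 9 starts, as at 20.7% of the 11203 gene starts with a peak in all 6 libraries, where the median log2 ratio was -0.047. At those 11203 starts, 50.6% (Atf3) to 98.8% (Junb) had a mean fold at or above that of an AP-1 gene. At Junb, Fosb, Fosl2, Batf and Batf3 the ranges overlapped. The Junb peak had its summits at -1414 to -1100 bases from the start. A separate Junb peak over the start, at 84978582 to 84978982, had 4.12, 3.57 and 3.88 in shFto and 4.07, 3.93 and 4.25 in shNC libraries. Fosl1 had no peak within its span. The nearest region, at 5456965 to 5457754 on chromosome 19, had 14.5, 15.7 and 15.7 in shFto and 17.5, 17.1 and 16.1 in shNC libraries, without overlap. At 5444915 to 5445340 the values were 14.5, 12.2 and 15.2 against 20.8, 24.0 and 19.3, also lower in shFto. At 5464259 to 5464622 they were higher in shFto, 18.5, 18.1 and 16.4 against 15.5, 15.5 and 14.3. The ranges overlapped at 5460447 to 5460755. These regions were not tested, and the share of all regions that separate was not computed.

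**Figure D3:**
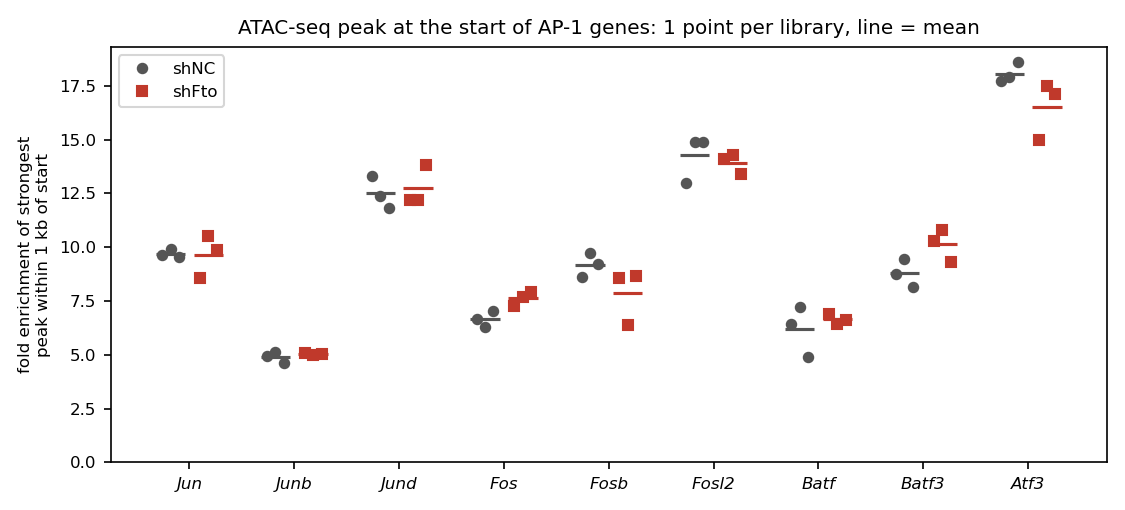
Fold enrichment of the strongest ATAC-seq peak that reaches within 1 kb of the annotated start (y axis, from 0, as deposited) of 9 AP-1 genes (x axis) in 3 shNC and 3 shFto tumour libraries. At Junb and Jund the summits of that peak lie more than 1 kb from the start. Points are libraries and lines group means. The groups separate at Fos (7.27 to 7.92 in shFto, 6.29 to 7.04 in shNC) and at Atf3 (15 to 17.5 in shFto, 17.7 to 18.6 in shNC) and overlap at the other 7 starts.

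In CD8 T cells the summed level of the family was far higher, and Batf3 alone went the other way. Its group means were 0.893 to 1.32 CPM in T cells, and 4.24 CPM in shNC and 3.53 CPM in shFto tumour cells. The 10 genes summed to 1580 to 2220 CPM, against 147 to 218 CPM in tumour libraries. The tables were scaled separately, so levels across them are given side by side without a test. Beside shNC cells, T cells had 408 ± 21.1 CPM of Jun, 405 ± 23.8 of Junb, 309 ± 59.5 of Jund, 377 ± 12.3 of Fosl2, 193 ± 40.7 of Fos, 150 ± 22.2 of Fosb, 62.5 ± 4.55 of Atf3, 27.4 ± 3.16 of Fosl1, 18.5 ± 2.63 of Batf and 0.893 ± 1.26 of Batf3 (SD, n = 2). Per kilobase of gene, which can be given for Jun and Junb because each has a single exon, T cells beside shNC had 128 ± 7.07 CPM per kb of Jun and 220 ± 12.7 of Junb (SD, n = 2). shNC tumour cells had 25.2 ± 2.08 of Jun and 13.0 ± 0.666 of Junb (SD, n = 3). Junb was thus the higher of this pair in T cells and Jun in shNC tumour cells, each by more than the SDs. In shFto tumour cells they lay within the SDs, at 16.7 ± 2.13 and 14 ± 3.19 CPM per kb.

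T cells that had met Fto knockdown tumour cells had more Fosl1 and Atf3 RNA, whichever shFto line they met. Fosl1 was at 29.6 and 25.2 CPM beside shNC, 54.0 and 57.6 beside shFto-1 and 72.6 and 78.1 beside shFto-2 cells, with no overlap between any of the 3 groups. Against shNC its log2 fold change was 1.05 for shFto-1 (SE 0.14, edgeR adjusted p = 0.00094) and 1.48 for shFto-2 (SE 0.138, adjusted p = 4.71e-05). The difference between the lines, 0.44 (interval 0.16 to 0.71), did not pass after adjustment (adjusted p = 0.105). Atf3 was at 59.3 and 65.7 CPM beside shNC, 135 and 117 beside shFto-1 and 125 and 117 beside shFto-2. Both shFto groups lay above both shNC libraries, at nearly the same level, and the log2 fold changes were 1.0 (SE 0.121, adjusted p = 0.000621) and 0.94 (SE 0.121, adjusted p = 0.000239). For the mean of both lines against shNC they were 1.27 for Fosl1 and 0.97 for Atf3. In tumour cells Atf3 moved the other way, and Fosl1 had 3 counts in all. The comparisons with shNC share the same 2 control libraries.

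Jun, Junb and Fos, 3 of the early response genes, were lower in T cells beside shFto-2 than beside shNC. Jun was at 423 and 393 CPM beside shNC, 420 and 393 beside shFto-1 and 305 and 235 beside shFto-2 cells. Both shFto-2 libraries lay below the other 4. Its log2 fold change was 0 for shFto-1 (95% interval -0.28 to 0.28) and -0.59 for shFto-2 against shNC (SE 0.126, adjusted p = 0.00479). Fos was at 222 and 164 CPM beside shNC, 175 and 129 beside shFto-1 and 128 and 83.2 beside shFto-2. It fell against shNC for shFto-2 (-0.85, SE 0.22, adjusted p = 0.0134) and did not pass for shFto-1 (-0.32, interval -0.8 to 0.17, adjusted p = 0.359). Junb was at 422 and 388 CPM beside shNC, 431 and 337 beside shFto-1 and 303 and 291 beside shFto-2, and fell for shFto-2 (-0.44, SE 0.122, adjusted p = 0.0177). The calls of Junb (adjusted p = 0.0528) and Fos (0.0623) for shFto-2 were lost without shNC replicate 1, the library with the fewest counts.

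A direct comparison of T cells beside shFto-2 with those beside shFto-1 called Jun alone of the 9 tested AP-1 genes. Its log2 fold change was -0.59 (SE 0.125), and its edgeR adjusted p of 0.0499 was just under the threshold. It was lost without shFto-1 replicate 1 (adjusted p = 0.293), shFto-1 replicate 2 (0.0763) or shFto-2 replicate 2 (0.209). For Fos (-0.53, adjusted p = 0.253), Junb (-0.37, 0.148), Jund (-0.33, 0.293) and Fosb (-0.35, 0.577) the difference between the lines did not pass, so the values beside shFto-2 are not shown to differ from those beside shFto-1. Of all 12824 genes 1.91% were called in this comparison, 245 genes, which became 1 without shFto-1 replicate 1, 166 without shFto-1 replicate 2, 507 without shFto-2 replicate 1, 68 without shFto-2 replicate 2 and 380 without shNC replicate 1. The libraries of the 2 lines did not overlap for 6 of the 9 genes, as for 46.7% of all genes.

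The remaining members were not called in any of these T cell comparisons. Fosl2 was at 386 and 369 CPM beside shNC, 426 and 401 beside shFto-1 and 408 and 412 beside shFto-2, with intervals of -0.06 to 0.33 and -0.08 to 0.32 (log2). Batf, the partner of IRF4 in activated T cells, was at 20.4 and 16.6, 21.9 and 19.3, and 22.4 and 22.3 CPM in the same order (adjusted p = 0.547 and 0.271). Jund was at 351 and 267, 381 and 329, and 309 and 254 CPM (adjusted p = 0.373 and 0.59). Fosb was at 165 and 134, 173 and 113, and 141 and 84.7 CPM (adjusted p = 0.95 and 0.292). Its fold change for shFto-2 (-0.38, log2) was called with no filter (-0.39, adjusted p = 0.012), with a replicate block (-0.45, 0.0189) and without shFto-2 replicate 1 (-0.85, 0.0132). Batf3 had 0 to 18 counts a library and was not tested.

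**Figure D4:**
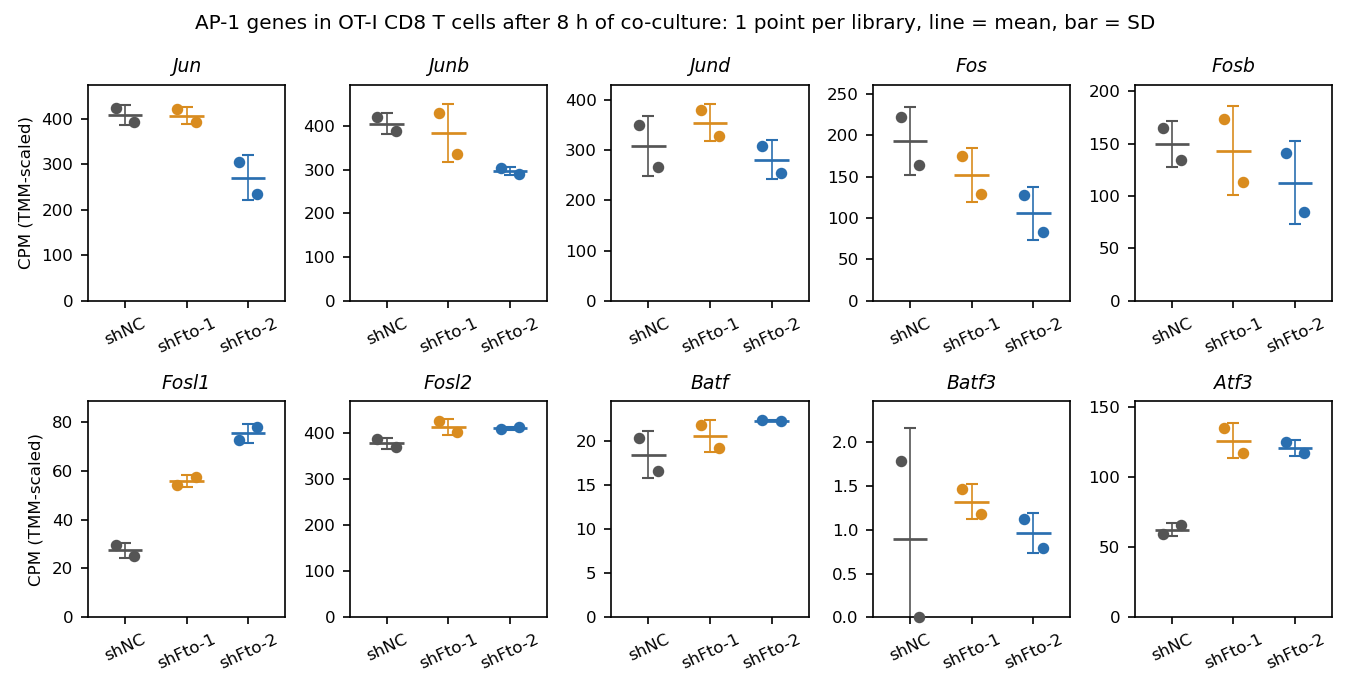
Level of each AP-1 gene in OT-I CD8 T cells after 8 h beside tumour cells of the shNC, shFto-1 or shFto-2 line, in TMM-scaled CPM (y axis, from 0, scaled per gene). Points are libraries, horizontal lines means and bars the SD of 2 libraries a group. Fosl1 and Atf3 lie higher beside both shFto lines, and Jun, Junb and Fos lie lower beside shFto-2, at 235 to 305, 291 to 303 and 83.2 to 128 CPM.

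For shFto-1 against shNC, 2 of 9 AP-1 genes were called, both higher, with 22.2% of all genes called, 2853 genes, or 1587 without shFto-1 replicate 1. The libraries did not overlap for 3 of the 9, against 60.0% of all genes. For shFto-2, 2 were higher and 3 lower, with 33.7% of all genes called. The libraries did not overlap for 7 of the 9, against 67.3%. For the mean of both lines, 2 were higher and 1 lower, with 32.9% of all genes called, 20.3% higher and 12.7% lower. The libraries did not overlap for 3 of the 9, against 51.1%. The 1 lower gene was Fos (log2 fold change -0.58, SE 0.187, adjusted p = 0.0369), whose call was lost with DESeq2 (adjusted p = 0.0901), without shFto-1 replicate 2 (0.0594) and without shNC replicate 1 (0.231). Jun (-0.3, adjusted p = 0.0607) and Junb (-0.26, 0.0876) did not pass there. The median log2 fold change of the 9 genes was 0.13, -0.12 and 0.04 in these comparisons, beside 0.021, -0.026 and -0.01 for all genes.

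Scaling by library totals moved the median of all genes from -0.01 to -0.181 for the mean of both lines, from 0.021 to -0.147 for shFto-1 and from -0.026 to -0.201 for shFto-2. The share of higher genes among the calls went from 61.5% to 42.8%, from 69.3% to 45.7% and from 60.5% to 44.8%. With that scaling, Fosl1 (1.09) and Atf3 (0.8) were still higher and Fos (-0.75) lower for the mean of both lines, each called, and Jun (-0.47) and Junb (-0.43) were called lower too. Jund (-0.13) and Fosl2 (-0.04), neither called, changed sign. The 10 melanoma markers summed to 988 and 1250 CPM beside shNC, 1400 and 1500 beside shFto-1 and 1300 and 1470 beside shFto-2, and 3 of 10 rose for the mean of both lines. At the highest melanoma share of a group, the tumour cell level of a gene would amount to 6.6 CPM of the 408 CPM of Jun beside shNC, 4.12 of the 270 beside shFto-2, 0.168 of the 126 CPM of Atf3 beside shFto-1, and 0.00363 of the 75.4 CPM of Fosl1 beside shFto-2. For Batf3, which was not tested, it would amount to 0.349 of 0.893 CPM beside shNC, and for Batf to 0.456 of 18.5 CPM. The labels give no co-culture for the tumour libraries, and the share is that of the summed markers. Single markers differed, with Pmel at 41.1 CPM beside shNC and 2930 CPM in shNC tumour cells, and Mlana at 140 and 882 CPM. These amounts are therefore no upper limit, and the part of tumour cells in the AP-1 values was not tested. The CD8 markers summed to 4210 to 4390 CPM beside shNC, 3850 to 3880 beside shFto-1 and 3250 to 3440 beside shFto-2, and of the 10 genes 7 fell and 1 rose for the mean of both lines, among the former Cd8a (360 to 268 CPM) and Cd3e (230 to 161 CPM). Fibroblast and endothelial markers summed to 125 to 158 CPM beside shNC and 34.0 to 74.4 beside the shFto lines, of which Pecam1 was the main part (127 CPM beside shNC and 54.6 over both shFto lines). Myeloid markers summed to 12.2 to 14.6 and 14.7 to 22.3 CPM, B cell markers to 2.84 to 6.43 and NK cell markers to 1.59 to 6.07 CPM in all T cell libraries. The part of the CD8, endothelial and myeloid markers in the AP-1 values was not tested.

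**Figure D5:**
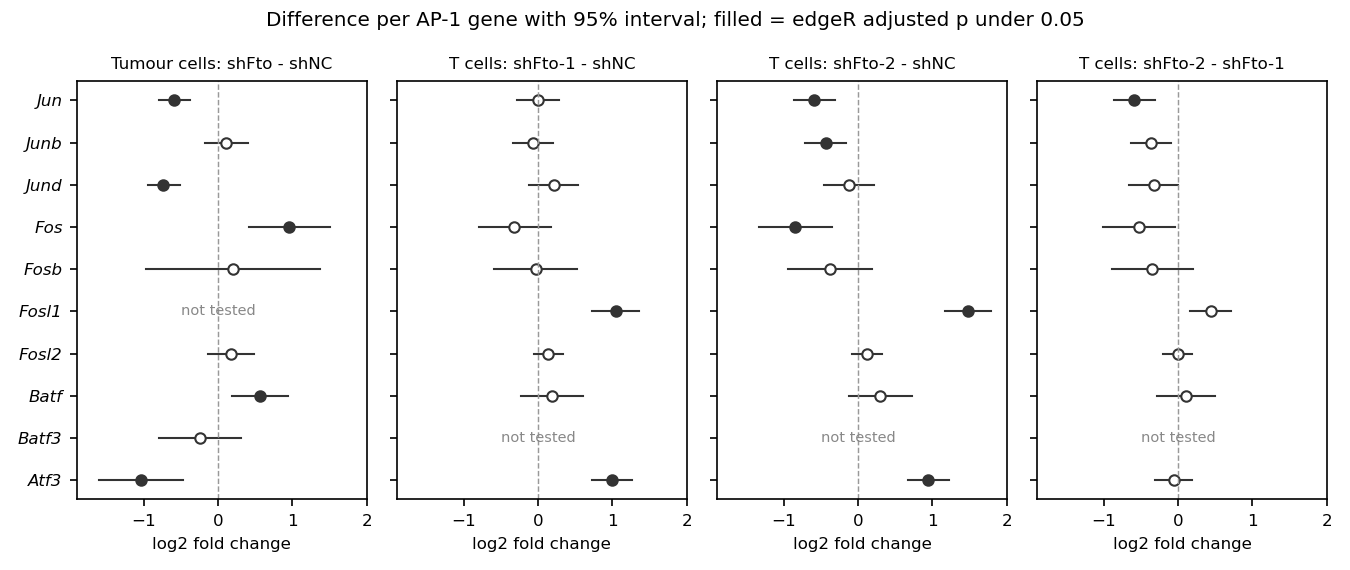
Log2 fold change (x axis) of each AP-1 gene (y axis) with its 95% interval in 4 comparisons, the first between shFto and shNC tumour cells and the others between T cells by the tumour line they met. Filled points have an edgeR adjusted p under 0.05 over all genes. Jun has -0.59 in tumour cells and beside shFto-2, Atf3 has -1.04 in tumour cells and 1.0 and 0.94 in T cells, and Fosl1 has 1.05 and 1.48 in T cells.

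The other genes of the AP-1 pathway were counted for both shFto lines averaged against shNC. In that comparison 20.3% of all 12824 tested genes were called higher and 12.7% lower. Of 15 transcription factors that act beside AP-1 in T cells, 6 rose and 5 fell (median log2 fold change 0.1). Irf8, a partner of BATF-containing dimers, rose from 299 to 630 CPM (1.07, adjusted p = 3.69e-05), the NF-kappaB gene Nfkb1 from 859 to 1570 CPM (0.86), and Ets1, a factor of resting T cells, fell from 771 to 396 CPM (-0.98). Of 15 tested target genes of AP-1 and NFAT, 9 rose and 1 fell (median 0.88). The granzyme gene Gzmb rose from 95 to 401 CPM (log2 fold change 2), the costimulatory receptor gene Tnfrsf9 from 168 to 460 CPM (1.44) and the IL-2 receptor gene Il2ra from 352 to 672 CPM (0.91). For shFto-1 alone 9 of these targets rose and 0 fell, and for shFto-2 9 rose and 3 fell. Of all genes, 15.4% rose and 6.84% fell for shFto-1, and 20.4% and 13.3% for shFto-2. The target list and the partners were chosen with results of these libraries known and are not independent evidence of a direction. Of 16 general AP-1 targets 3 rose and 0 fell (median 0.28). Among them was Ccl2, a chemokine gene usual in other cell types, which rose from 7.73 to 57.2 CPM.

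The same comparison, with 20.3% of all genes called higher and 12.7% lower, was used for the remaining lists. Of the 23 genes for MAP kinases, linked kinases and transcription factors they act on, 5 rose and 5 fell (median 0.11). Map3k1, a kinase upstream of JNK, fell from 378 to 199 CPM (log2 fold change -0.95, adjusted p = 4.33e-05), while the p38 activator Map2k3 (0.75) and Srf, the serum response factor that acts on Fos (0.65), rose. Of 17 restraining genes 4 rose and 4 fell (median 0.05). The ERK phosphatase gene Dusp4 (1.26) and the ERK inhibitor Spred1 (0.92) rose, and Zfp36, whose protein destabilises cytokine and early response RNAs, fell (-0.92). Of 18 bZIP relatives 5 rose and 2 fell (median 0.03), with Atf6 at 0.97, Atf4 at 0.73 and Creb1 at -0.61.

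Between the 2 shFto lines, genes of these lists other than Jun also passed, in a comparison that called 1.91% of all 12824 genes. The number of calls over all genes changed strongly when a single library was left out, as given above, and the calls named here carry that limit. Beside shFto-2, the target genes Csf2 (-0.9) and Cd69 (-0.55) and the factors Egr3 (-0.95) and Tbx21 (-0.72) were lower than beside shFto-1, as was Map3k1 (-0.5, adjusted p = 0.04), while Gzmb (0.93) and Ccl2 (1.33) were higher. Over the 6 T cell libraries, the genes most like Batf in log2 CPM among 8185 with a mean of at least 10 CPM were Slc16a6 (Pearson r = 0.994), 0610037L13Rik (0.993) and Nap1l4 (0.991). They are given as a description, being the highest of 8185 correlations over 6 libraries. Batf itself spanned only 16.6 to 22.4 CPM and was not called in T cells.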

How the data were processed

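Samples were grouped by their labels. Per the submitters' processing notes, the tools included STAR 2.7.0f, MACS2 2.1.3, Bowtie2 2.3.5 and Trim Galore 0.6.0, with build mm10. How reads were counted, with which strand setting and gene models, and where peak thresholds lay is not given in the sources used here, so reads of overlapping genes cannot be told apart. RNA-seq tables hold the deposited raw counts per gene symbol. The deposited ATAC-seq lists give each peak a score, a fold enrichment ratio, and p and q on a -log10 scale. The deposited m6A lists, exomePeak output per the labels, give a fold enrichment ratio, a p-value and log10 scores per peak.

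Tumour and T cell tables were fitted apart with the quasi-likelihood model of edgeR 4.0.16 (R 4.3.3), after TMM scaling and its default expression filter. A gene was called at a Benjamini-Hochberg adjusted p under 0.05 over the whole table. The T cell contrasts came from 1 fit of 6 libraries. Alternatives were library totals, DESeq2 1.42.0, no filter, a replicate block and leaving out each library. The scripts were tested on simulated data. The genes and lists were chosen with earlier results of these data known. All 10 AP-1 genes are named, with Fto, up to 3 genes a list and comparison by smallest adjusted p, and the 3 genes most like Jun and Batf. One gene that this rule names is not reported here. Genes named beyond that rule, and the ratio of 1.5 for m6A peaks, were chosen after values were seen. Gene positions are from RefSeq on GRCm38.p6. Peaks overlapped by at least 1 bp. These steps used Python 3.11.15, SciPy 1.17.1 and pandas 2.3.3, and figures Matplotlib 3.10.9.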

Additional observations from a re-analysis of the deposited data

Results flagged for a closer look

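The log2 fold change of Jun in T cells beside shFto-2 against shFto-1 tumour cells was -0.59 (edgeR quasi-likelihood adjusted p = 0.0499). It was singled out because the direct comparison of the 2 shFto lines was just past the threshold, a call that was lost without shFto-1 replicate 1 (adjusted p = 0.293), shFto-1 replicate 2 (0.0763) or shFto-2 replicate 2 (0.209). Both shFto-2 libraries, 305 and 235 CPM, lay below both shFto-1 libraries, 420 and 393 CPM. Its adjusted p over the alternatives ran from 6.57e-05 to 0.293.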

How the results depend on the processing

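In tumour cells 5 AP-1 genes were called, and 4 to 5 without 1 library. For uncalled genes there the direction turned when 1 library was left out, with ranges of -0.10 to 0.22 for Junb and -0.60 to 1.04 for Fosb (log2). In T cells, for the mean of both shFto lines, the 3 calls became 5 with library totals and 5 with no filter, and 2 to 4 without 1 library. Jund went to -0.13 with library totals and -0.02 with DESeq2 (-0.12 to 0.22 without 1 library), and Fosl2 to -0.04 with library totals. For shFto-1 against shNC, Fosl2 went to -0.03 with library totals, and the ranges without 1 library were -0.03 to 0.03 for Jun, -0.24 to 0.07 for Junb and -0.37 to 0.20 for Fosb. For shFto-2 against shNC, the 5 calls ranged from 3 to 6 without 1 library, 3 without shNC replicate 1, Jund from -0.31 to 0.04, and Fosl2 was at -0.05 with library totals. Between the shFto lines the 1 call became 3 with no filter and 3 with DESeq2, and 0 to 2 without 1 library. The ranges were -0.80 to 0.02 for Fosb, -0.07 to 0.04 for Fosl2 and -0.16 to 0.06 for Atf3, and Fosl2 was at 0.00 with DESeq2. The cause was not tested. Jun, Jund, Fos and Atf3 in tumour cells and Fosl1 and Atf3 against shNC in T cells kept direction and call under every alternative run.

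Replicate numbers are shared by the groups. Over all genes, the deviations of same-numbered libraries correlated with r of 0.022, 0.049 and -0.011 in tumour cells. In T cells r was 0.361 between the shFto lines, but -0.333 and -0.207 between each of them and shNC, so the numbers were not taken as pairs. With a replicate block, 5 genes were called in tumour cells, 5 for the mean of both lines, 3 for shFto-1, 6 for shFto-2 and 2 between the lines. With the shNC numbers crossed in the block, chosen after seeing the data, these T cell counts were 4, 2, 5 and 1. Over all genes, the count for shFto and shNC tumour cells was 3841, and 2468 without shFto replicate 1. Between the shFto lines it was 245, and 1 to 507 without 1 library, 838 with no filter, 993 with DESeq2 and 446 with the replicate block.

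The difference in ATAC-seq peaks near AP-1 genes went from -2.0 to -5.33 with peaks of -log10 q of at least 10, and ran from -3.17 to -1.17 without 1 library. The stricter setting did not match list lengths. At that cutoff the shFto lists held 51708, 49497 and 50973 peaks over the genome and the shNC lists 59327, 57227 and 51677. Whether the difference near AP-1 genes goes beyond that of the lists was not tested. The planned share of ATAC-seq peaks with an AP-1 motif was not run, because no genome sequence was used here. The T cell comparisons rest on 2 libraries a group, and the m6A lists on 1.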

Other observations

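Jun, Junb, Jund, Fos and Fosb varied together between T cell libraries of a group. In each of the 3 groups the library with replicate number 1 was the higher one for all 5 genes, for Fosb with 173 against 113 CPM beside shFto-1, 141 against 84.7 beside shFto-2 and 165 against 134 beside shNC. Batf was ordered in the same way, though by very little beside shFto-2. The share of all genes with this order was not computed. The total counts of these libraries were 13066355, 9294666 and 2628158, and those of the others 5166653, 6549224 and 6567685, so the higher library was the deeper one in 2 of the 3 groups. The labels do not say what a number stands for.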
